A study of Mus musculus with 28 samples.

Results

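Interferon-stimulated genes were followed in the jugular vein of mice after creation of an arteriovenous fistula (AVF), the surgical joining of a vein to an artery that gives access for hemodialysis. The 38 genes were chosen by symbol from those known to be switched on by interferons, with earlier results of these data known. All 38 were among the 12673 genes tested in the bulk libraries. By role they comprised 5 sensors of foreign or misplaced nucleic acid, 3 transcription factors, 16 antiviral effectors, 3 genes of the ISG15 system, 4 guanylate-binding proteins (GBPs), 2 chemokines and 5 others.

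All mice were C57BL/6, male and female, and all had undergone 5/6 nephrectomy, a removal of most kidney tissue that models chronic kidney disease, 3 to 4 weeks before the fistula was made by sewing the cut end of a jugular vein onto the side wall of the carotid. The contralateral jugular veins (CL), which came from nephrectomized mice too, served as controls, so no comparison had vessels from mice with intact kidneys. Bulk RNA sequencing covered 7 CL, 8 early AVFs at about 3 days, 5 mid AVFs at about 10 days and 5 late AVFs at about 21 days, with 1 library per vessel. The study's methods give a wider spread of harvest days for the early AVFs than for the mid or late ones. The labels give all 8 early AVFs the same day, so the early libraries cannot be ordered by day. Total counts ranged over 20254173 to 29913427 (CL), 23676215 to 67457501 (early AVFs), 27021483 to 33395623 (mid AVFs) and 27855449 to 36879746 (late AVFs). Single-cell RNA sequencing covered 3 further libraries of CL, early and late AVFs, each 1 pool of 10 vessels from both sexes, so that each single-cell group was 1 sample. Per the study's methods the early and late pools were taken some days later after surgery, on average, than the bulk groups of the same name.

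Interferons are secreted signals of infection and cell damage. Type I interferons bind the receptor chains IFNAR1 and IFNAR2, and interferon gamma binds IFNGR1 and IFNGR2. Janus kinases then phosphorylate STAT proteins, and complexes that include STAT2 and IRF9 bind the interferon-stimulated response element (ISRE), while interferon gamma acts mainly through the gamma-activated site (GAS). The induced genes include the sensors and factors themselves, which amplify the response, proteins that block viral entry, translation or budding, and chemokines that attract T cells. In vessels the response is known from leukocytes, endothelium and stromal cells alike.

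Promoter windows from RefSeq (GRCm38.p6), each reaching from 250 bases before to 50 after a transcription start, were matched to 29 of the 38 members. The core of the ISRE, searched on both strands as GAAA, any 2 bases and GAAA, stood in a window of 18 of these 29 members (62.1%), against 3.99% of the 27025 genes with a window. The GAS, searched as TTC, any 3 bases and GAA, which reads the same on both strands, stood in 7 of 29 members (24.1%), against 9.55% of all genes. The search letters are a description of these windows and no measure of binding. The 150 bases before the start are printed for Oas1a and Bst2, effectors called higher in early AVFs, for 3 classical members, and for Oasl2, called higher as well but without an ISRE core in its window, with capitals marking the ISRE core matches (adjoining matches run together).
Oas1a, chr5:120907526-120907675 (- strand): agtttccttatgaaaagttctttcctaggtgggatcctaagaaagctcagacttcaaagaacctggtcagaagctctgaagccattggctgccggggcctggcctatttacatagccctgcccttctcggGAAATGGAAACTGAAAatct
Bst2, chr8:71537473-71537622 (- strand): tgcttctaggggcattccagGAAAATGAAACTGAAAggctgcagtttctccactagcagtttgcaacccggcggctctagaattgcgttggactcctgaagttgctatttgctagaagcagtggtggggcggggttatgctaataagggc
Isg15, chr4:156200819-156200968 (- strand): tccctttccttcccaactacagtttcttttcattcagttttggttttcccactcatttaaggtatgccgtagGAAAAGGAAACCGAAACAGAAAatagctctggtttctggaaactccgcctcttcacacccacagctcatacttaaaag
Ifit1, chr19:34640739-34640888 (+ strand): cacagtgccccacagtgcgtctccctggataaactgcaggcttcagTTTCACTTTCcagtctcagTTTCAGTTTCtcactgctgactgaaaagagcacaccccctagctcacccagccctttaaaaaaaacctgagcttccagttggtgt
Rsad2, chr12:26456453-26456602 (- strand): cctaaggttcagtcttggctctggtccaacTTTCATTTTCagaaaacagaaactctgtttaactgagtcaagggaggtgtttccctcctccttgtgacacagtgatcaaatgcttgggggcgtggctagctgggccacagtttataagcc
Oasl2, chr5:114896784-114896933 (+ strand): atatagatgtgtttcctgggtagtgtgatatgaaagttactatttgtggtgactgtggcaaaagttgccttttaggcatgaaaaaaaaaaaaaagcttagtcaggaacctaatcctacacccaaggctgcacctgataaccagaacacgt

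Oas1a held matches that began 20 and 14 bases before the start, and Isg15 held 3 overlapping matches within its window. Bst2 held 2 matches further upstream, and its GAS match overlapped the first of them. The windows of Ddx58, Ifih1 and Ifitm3 held ISRE cores only after the start. Among the GBPs, the targets best known for interferon gamma, all 4 windows held an ISRE core and those of Gbp5 and Gbp7 held a GAS as well.

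Some CL libraries stood apart before any comparison was made. In CL 28, 31, 34 and 632 between 23.2% and 40% of the tested genes were below 1 CPM (counts relative to the library's total), against 5.76% to 14.4% in the other 3 CL and 0.576% to 9.39% in the AVFs. For 23 of the 38 members at least 1 CL was below 1 CPM, as it was for 55.6% of all tested genes. The spread of the members between libraries, as the median SD of log2(CPM + 1), was 1.86 (CL), 0.80 (early), 0.46 (mid) and 0.37 (late). For the members, results against CL are therefore given with and without these 4 veins where the call changed. Genes of the pathway and marker lists were tested with all libraries only. No pair of bulk libraries was identical.

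**Figure D1:**
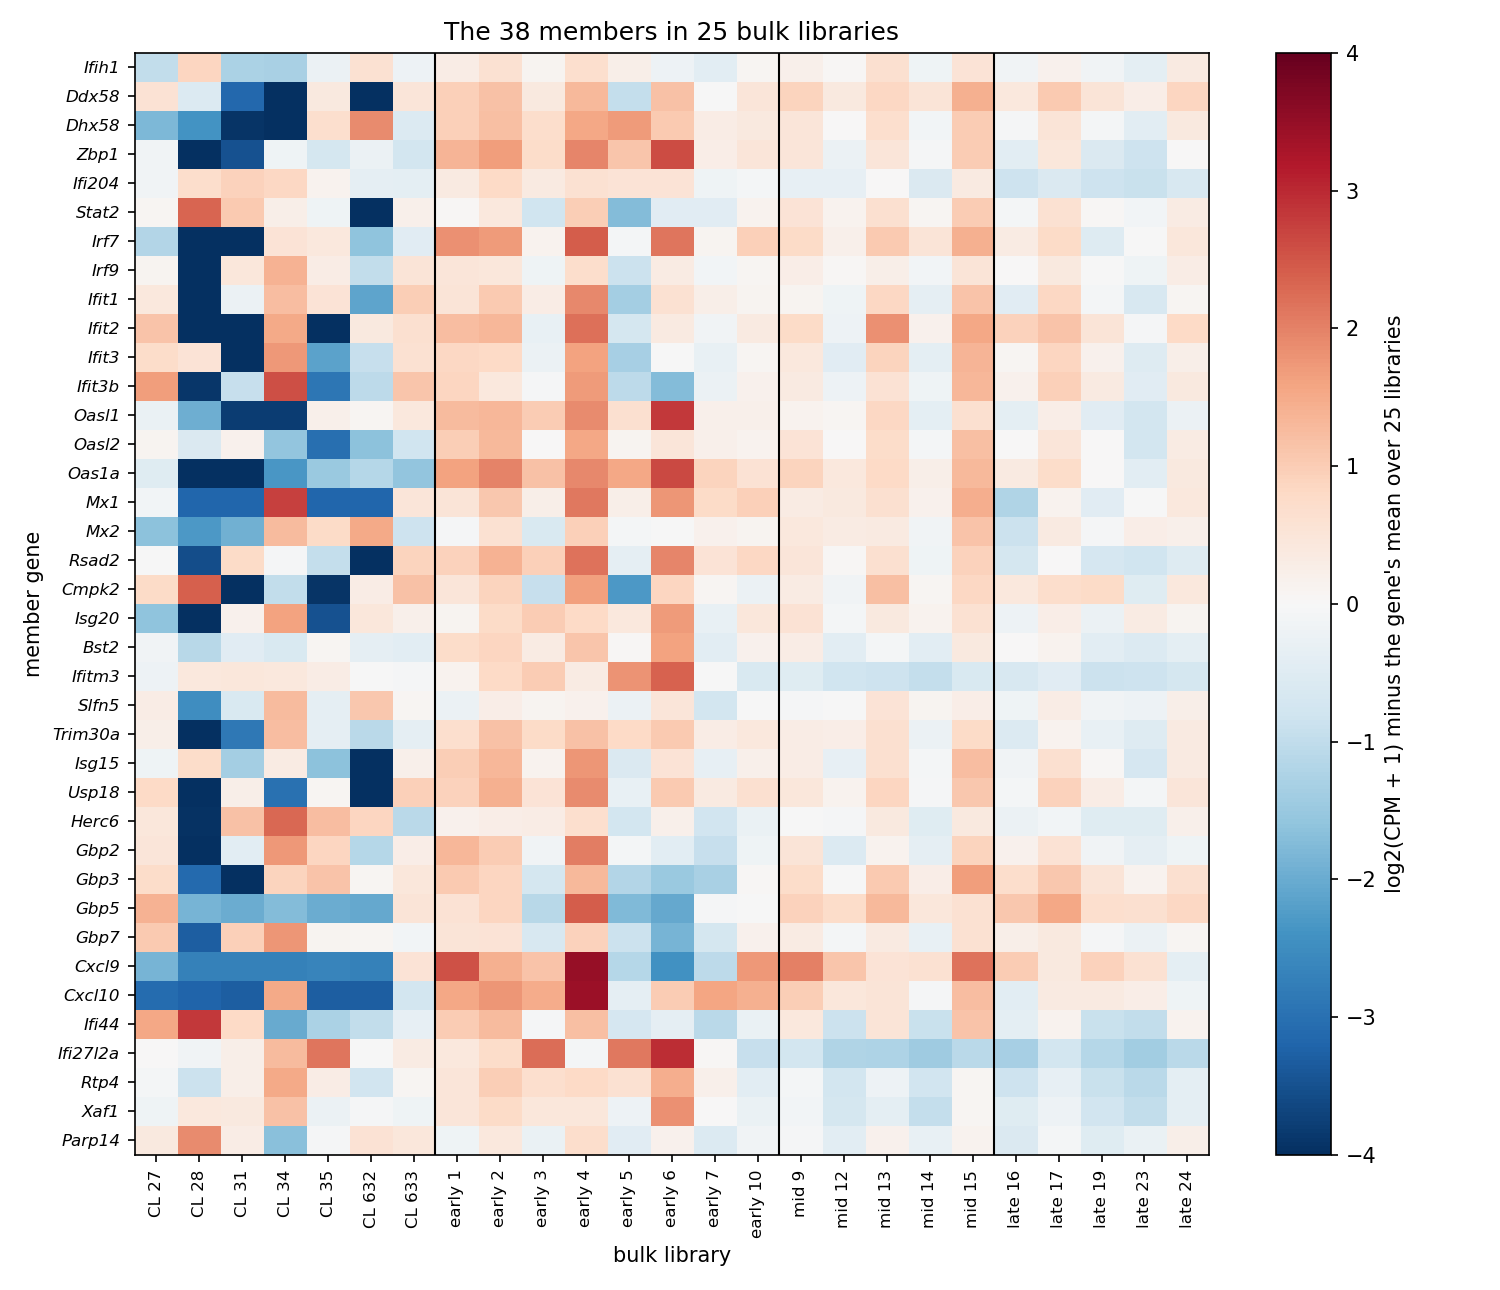
Level of each member (rows) in each of the 25 bulk libraries (columns), as log2(CPM + 1) minus the gene's mean over all libraries, on a color scale that ends at 4 in either direction. Dark blue cells, genes near 0, lie mostly in CL 28, 31, 34, 35 and 632, and early AVF 4 and mid AVF 15 are high for most members of their group.

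Early AVFs were compared with CL to ask which members changed in the first days. A gene was called at an adjusted p under 0.01 and a change of at least 1 on the log2 scale. Of the 38 members 4 were called higher (6.17% of all tested genes were) and none lower (6.45% of all genes), so that the count of members higher was not far from the background. The 4 were the sensor Zbp1 and the effectors Oas1a, Oasl2 and Bst2. The log2 fold change was positive for 27 members and negative for 11, with a median of 0.67 against -0.01 over all genes. An unadjusted p under 0.05 was found for 11 members (34.2% of all genes), a smaller share than that of genes in general. DESeq2's Wald test called 7 higher (9.52% of all genes) and none lower (9.5% of all genes), adding Irf7, Cxcl9 and Cxcl10. In 2 members, Oas1a and Zbp1, every early AVF lay above every CL, as was so for 4.47% of all genes. Bulk values cannot tell more cells of a type from more RNA per cell.

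Leukocyte markers rose in the same libraries. The summed level of 13 mono/macro markers ranged from 2209 to 8364 CPM in CL and from 12310 to 37560 CPM in early AVFs, with 10 of 13 called higher. The summed level of 8 neutrophil markers ranged from 5.31 to 271.8 CPM in CL and from 314.3 to 4546 CPM in early AVFs, with 5 of 7 tested called higher. Markers of plasmacytoid dendritic cells, a cell type known for interferon release, were not called in any of the 4 comparisons in which they were counted (3 of 5 tested). These markers were low or uneven. Ccr9 and Pacsin1 averaged at most 2.92 and 1.71 CPM in any group, and Klk1 averaged 97.8 CPM in CL with an SD of 256.7. The lack of a call therefore says little about these cells. None of the 7 markers of NK cells, a source of interferon gamma, reached the tested level. The part of any cell type in the changes of the members was not tested.

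Oas1a encodes an enzyme that, on double-stranded RNA, makes the short oligoadenylates that activate RNase L. Its level ranged from 0.0876 to 24.9 CPM in CL (median 10.9) and from 52.7 to 221 CPM in early AVFs (median 106). In mid AVFs the values were 65.9, 47.7, 62.0, 41.0 and 87.8 CPM, and in late AVFs 45.4, 58.3, 35.6, 25.9 and 46.0 CPM. Every AVF at every time thus lay above every CL. The log2 fold change in early AVFs was 3.52 (SE 0.69, edgeR adjusted p = 0.0004601). At mid (2.62, edgeR adjusted p = 0.01336) and late (2.09, edgeR adjusted p = 0.04964) times the difference from CL did not pass the threshold. The near-identical paralog Oas1g, whose reads can be split with those of Oas1a, was called higher too in early AVFs (log2 fold change 4.03, edgeR adjusted p = 0.002893).

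Zbp1 encodes a sensor of Z-form nucleic acid that can start necroptosis. Its level ranged from 0.125 to 30.7 CPM in CL (median 20.7) and from 41.4 to 213 CPM in early AVFs (median 81.7). Mid AVFs had 48.7, 28.8, 48.1, 33.1 and 69.7 CPM and late AVFs 25.2, 47.4, 22.4, 18.7 and 34.4 CPM, so that both groups overlapped CL. The rise in early AVFs was 2.34 on the log2 scale (SE 0.61, edgeR adjusted p = 0.00577). It did not pass without CL 35, CL 633, early AVF 4 or early AVF 6, with adjusted p of 0.012, 0.01002, 0.01121 and 0.01423 (edgeR), and passed without the 4 sparse CL (2.02, edgeR adjusted p = 0.002201).

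Oasl2 encodes a relative of the oligoadenylate synthetases. It ranged from 11.9 to 117 CPM in CL (median 60.1) and from 105 to 304 CPM in early AVFs (median 134), so that the lowest early AVFs overlapped the highest CL. Mid AVFs had 153, 105, 172, 97.7 and 242 CPM and late AVFs 106, 148, 104, 62.8 and 131 CPM. The early rise was 1.45 on the log2 scale (SE 0.38, edgeR adjusted p = 0.00578). It was the least stable of the 4, since omission of any of 9 libraries (CL 34, 35, 632 and 633, early AVF 2 and 4, mid AVF 13, late AVF 19 and 24) took the adjusted p to between 0.01013 and 0.01582, and that of the 4 sparse CL together took it to 0.02649 (edgeR). A sex term ended the call too (1.496, edgeR adjusted p = 0.01088), and the sexes were unevenly spread, with 5 female and 2 male CL against 3 female and 5 male early AVFs.

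Bst2 encodes tetherin, which holds budding virus particles at the cell surface. It ranged from 44.8 to 104 CPM in CL (median 72.6) and from 73.4 to 298 CPM in early AVFs (median 144), with early AVF 7 and early AVF 5 within the range of CL. Mid AVFs had 121, 72.6, 92.4, 72.5 and 128 CPM and late AVFs 97.9, 108, 72.7, 66.4 and 74.4 CPM (late against CL 0.17 on the log2 scale, edgeR adjusted p = 0.7735). The early rise was 1.09 on the log2 scale (SE 0.26, edgeR adjusted p = 0.003443). Without early AVF 6 the rise was 0.95, below the fold threshold, and without the 4 sparse CL the adjusted p was 0.05578 (edgeR). With no filter on low counts Bst2 was not called either (1.05, edgeR adjusted p = 0.01066).

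The largest fold change among the members did not pass edgeR's test. Cxcl9, a chemokine for T cells that is induced above all by interferon gamma, was at 0 in 4 CL, at 0.035 and 0.791 CPM in CL 35 and CL 27, and at 8.62 CPM in CL 633. Early AVFs ranged from 0.217 to 72.0 CPM (median 15.0). Mid AVFs had 25.5, 13.2, 8.47, 9.02 and 28.6 CPM and late AVFs 12.2, 7.62, 11.2, 8.95 and 4.03 CPM. The fitted log2 fold change in early AVFs was 3.91 (SE 1.33, edgeR adjusted p = 0.0334), and DESeq2's Wald test called it at 3.95 (adjusted p = 0.002115). The result turned on CL 633, without which edgeR called Cxcl9 higher in early (7.14, adjusted p = 0.000414), mid (6.87, adjusted p = 0.001136) and late AVFs (5.93, adjusted p = 0.003485). Its relative Cxcl10 was likewise not called by edgeR (2.89, adjusted p = 0.07631) and was called by DESeq2 (3.66, adjusted p = 0.0008817). Cxcl10 was below 1 CPM in 5 of 7 CL and between 6.68 and 106 CPM in early AVFs, and edgeR called it without CL 34 alone (5.29, adjusted p = 0.001812), as it did Trim30a (1.68, adjusted p = 0.006157), and without the 4 sparse CL (4.32, adjusted p = 0.004436).

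**Figure D2:**
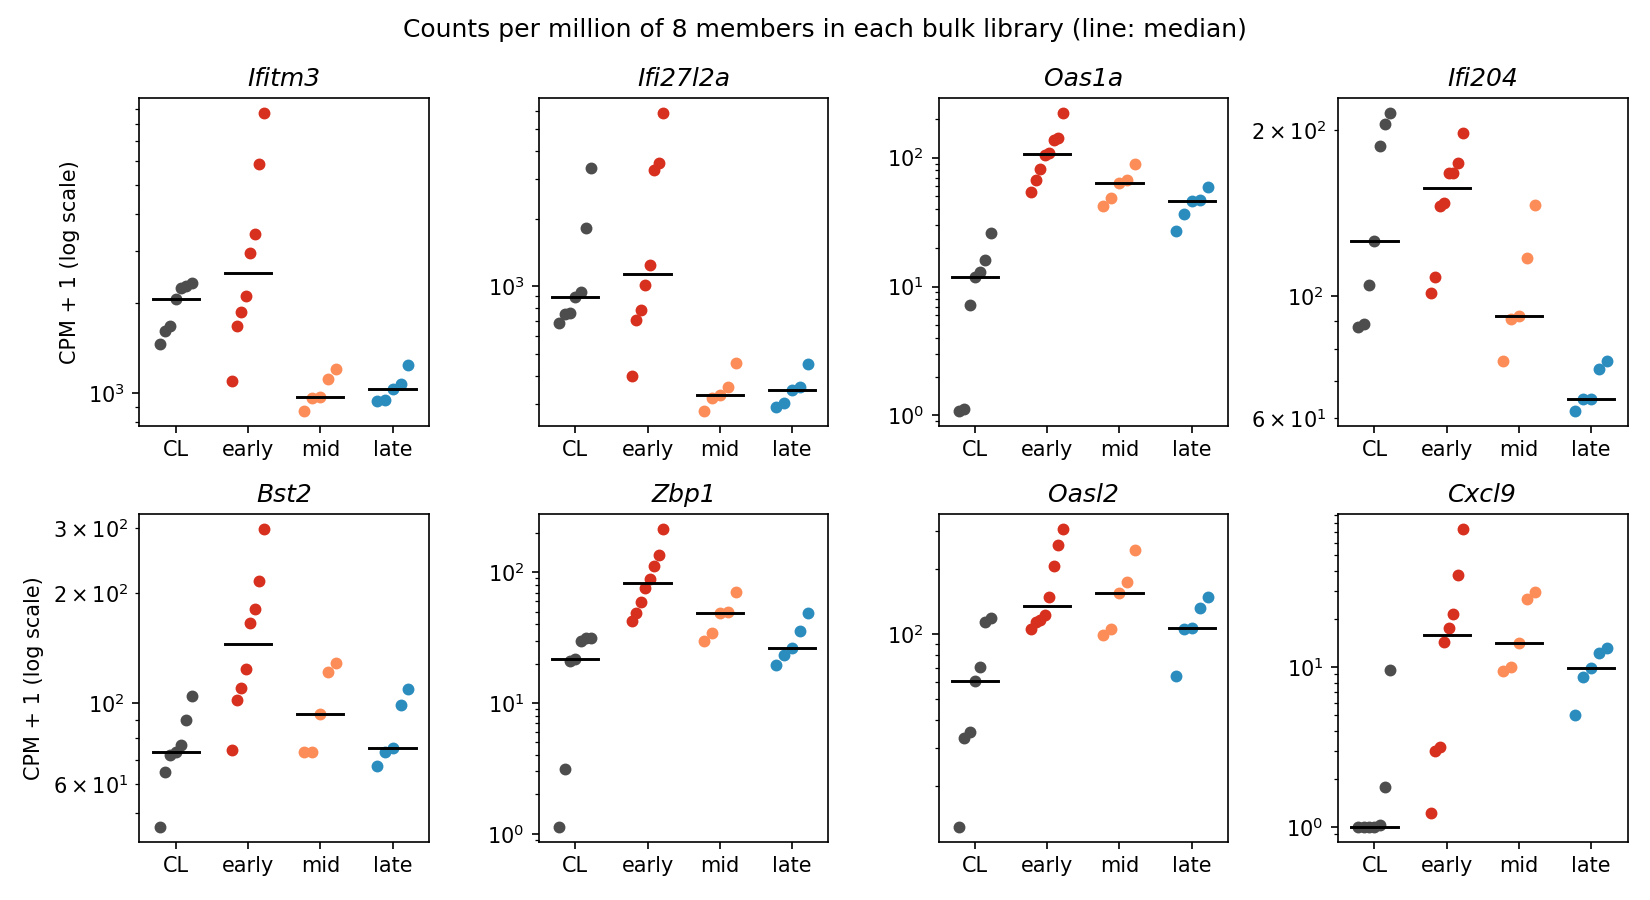
CPM per bulk library (points, log scale of CPM + 1) of the 8 members given in full, in order of value within each group, with the median of each group as a line. Oas1a lies above CL in every AVF, Ifi204 is lowest in the late AVFs, and Ifitm3 and Ifi27l2a are highest in 3 early AVFs.

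By role, the sensors all had positive fold changes in early AVFs (5 of 5, from 0.06 for Ifi204 to 2.34 for Zbp1), of which only Zbp1 was called. Among the factors, Irf7, the amplifier of type I interferon production, had the largest value (2.15, edgeR adjusted p = 0.03429), and Stat2 (-0.74) and Irf9 (-0.06), parts of the ISRE-binding complex, were not called. Effectors were positive in 12 of 16. The IFIT proteins, which bind viral RNA, stayed close to CL, from -0.51 for Ifit3b to 0.66 for Ifit2, with large overlap between groups. Ifit3 and Ifit3b are near-identical copies and may share reads, as may members of the Gbp, Mx, Trim30 and Ifi200 families. Rsad2 (viperin, 1.46, edgeR adjusted p = 0.08622) and Oasl1 (2.10, edgeR adjusted p = 0.07494) did not pass.

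In the ISG15 system, Isg15, the ubiquitin-like modifier, had 1.04 (edgeR adjusted p = 0.2051), and Usp18, the enzyme that removes it and restrains the type I receptor, had 1.18 (edgeR adjusted p = 0.3359). Herc6, the ligase that attaches it in mice, had -0.90 (edgeR adjusted p = 0.2882). The GBPs, which attack vacuoles of pathogens, were split evenly, from -0.60 for Gbp7 to 1.22 for Gbp5, none called. With edgeR and all 25 libraries, no member of 4 of the 7 roles (factors, ISG15 system, GBPs and chemokines) was called in any of the 6 bulk comparisons, while DESeq2's Wald test called the factor Irf7 and both chemokines in early AVFs, as given above.

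The rest of the pathway was read from lists that hold no member, against the background in early AVFs of 6.17% of all genes called higher and 6.45% lower. The calls of these genes were not repeated without the sparse CL or without single libraries. None of the 10 interferon ligand genes reached the tested level. Ifna1, Ifna2, Ifna5, Ifnl2 and Ifnl3 were listed at 0 in every library, Ifnb1 did not exceed 0.474 CPM and Ifng did not exceed 0.602 CPM. Both highest values came from later AVFs (mid for Ifnb1, late for Ifng). Among 5 receptor genes tested, Ifnar1 rose from 32.1 ± 36.7 CPM in CL (SD, n = 7) to 128 ± 27.5 CPM in early AVFs (SD, n = 8), a log2 fold change of 2.00 (edgeR adjusted p = 0.003708). Ifnar1 stayed higher in mid (2.15, edgeR adjusted p = 0.007012) and late AVFs (2.10, edgeR adjusted p = 0.009027). Ifngr2 rose in early AVFs (1.22, edgeR adjusted p = 0.001305), while Ifnar2 (0.60, edgeR adjusted p = 0.04689) and Ifngr1 (-0.15, edgeR adjusted p = 0.6907) were not called.

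Of the 10 signaling genes reported here, 1 was called higher in early AVFs, namely Irf8, a factor of the macrophage lineage (2.67, edgeR adjusted p = 0.004019), and none at mid or late times. Of 11 tested nucleic acid sensing genes, 3 were called higher in early AVFs. These were the DNA sensor Cgas, the endosomal RNA sensor Tlr8, and Myd88, the adaptor of most Toll-like receptors (1.23, edgeR adjusted p = 0.003899). Cgas (from 0.137 ± 0.265 CPM in CL to 9.18 ± 2.39 CPM in early AVFs) and Tlr8 (from 0.0722 ± 0.162 to 17.8 ± 9.81 CPM; SD, n = 7 and 8) were near 0 in CL and remained called at mid and late times.

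Of 35 other interferon-induced genes 5 were called higher (6.17% of all genes) and 2 lower (6.45% of all genes) in early AVFs. Trim25, which activates RIG-I, was higher at all 3 times (1.95, 1.64 and 1.34 on the log2 scale, edgeR adjusted p = 1.892e-05, 0.0007609 and 0.005266). The entry inhibitor Ifitm1 (2.72), the immunoproteasome subunit Psmb8 (1.01), the nucleotide hydrolase Samhd1 (1.06) and Oas1g completed the 5. Gbp9 (-2.29, edgeR adjusted p = 0.003843) and Ifi205 (-2.49, edgeR adjusted p = 0.0007194) were lower. Relatives of the members thus moved in both directions, since Oas1g and Ifitm1 were higher.

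Mid AVFs were compared with CL next. No member was called in either direction (2.74% of all genes were called higher and 3.31% lower). At an unadjusted p under 0.05 there were 5 members (25.9% of all genes). DESeq2's Wald test called 2, Oas1a higher (4.95% of all genes) and Ifi27l2a lower (6.08% of all genes). The log2 fold change was positive for 23 members and the median was 0.30, against -0.10 over all genes. In 1 member, Oas1a, every mid AVF lay above every CL (7.32% of all genes), and in 2, Ifitm3 and Ifi27l2a, every mid AVF lay below (4.69% of all genes). Without the 4 sparse CL 1 member was called, Oas1a (1.94, edgeR adjusted p = 0.002939), as it was without CL 27, 28 or 31 alone (edgeR adjusted p of 0.004942 to 0.006808). The mono/macro marker sum was still higher than in CL, from 11660 to 16040 CPM, and the neutrophil sum ranged from 170.3 to 412.2 CPM.

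In late AVFs 1 member, Ifi204, was called lower than in CL (2.85% of all genes) and none higher (2.49% of all genes). The median log2 fold change of the members was -0.11, against -0.09 over all genes, and 20 of 38 values were negative. At an unadjusted p under 0.05 there were 7 members (24.8% of all genes). DESeq2's Wald test called 2 lower, Ifi204 and Ifi27l2a (5.52% of all genes), and none higher (4.57% of all genes). Without early AVF 10 edgeR called Ifi27l2a lower than CL in mid (-1.97, adjusted p = 0.006932) and late AVFs (-1.96, adjusted p = 0.007951). Ifi204 belongs to the Ifi200 family of cytosolic and nuclear DNA sensors. It ranged from 86.8 to 214 CPM in CL (median 125) and from 100.3 to 197 CPM in early AVFs (median 156). Mid AVFs had 91.0, 89.6, 116, 75.2 and 145 CPM. Late AVFs had 63.9, 75.1, 64.0, 60.8 and 72.7 CPM, below every CL and every early and mid AVF.

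Ifi204 fell by 1.10 on the log2 scale against CL (SE 0.26, edgeR adjusted p = 0.006402). The call was narrow, since it was lost in 12 of 25 omissions of 1 library, among them each of the 5 late AVFs (edgeR adjusted p of 0.01476 to 0.02435), CL 28, 31 and 34, and early AVF 1, 2, 3 and 6. Without CL 31 the change was -0.89, and without CL 28 it was just under the fold threshold (edgeR adjusted p = 0.009567). With no filter (edgeR adjusted p = 0.01382) or a sex term (edgeR adjusted p = 0.01071) Ifi204 was not called, and no member was called without the 4 sparse CL. Late AVFs also lay below every CL for Ifitm3 and Ifi27l2a, so that 3 members did (4.25% of all genes), and above every CL for Oas1a (6.25% of all genes).

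Late AVFs were then compared with early AVFs to ask which members fell as the AVF matured. Of the 38 members 3 were called lower in late than in early AVFs (2.28% of all genes were) and none higher (0.726% of all genes). The log2 fold change was negative for 33 of 38, with a median of -0.63 against 0.01 over all genes. All 5 sensors, all 3 genes of the ISG15 system, both chemokines and 15 of 16 effectors had negative values, and 3 of the 4 GBPs had positive ones. In 1 member, Ifi204, every late AVF lay below every early AVF (8.39% of all genes). The 3 called members were Ifi204, Ifitm3 and Ifi27l2a, to which DESeq2's Wald test added Rtp4 (4.32% of all genes called lower and 1.47% higher by it), as did edgeR without CL 28, CL 34 or early AVF 10 (adjusted p of 0.004628 to 0.007371). An unadjusted p under 0.05 was found for 8 members (15.9% of all genes).

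Ifitm3 encodes a membrane protein that blocks the entry of enveloped viruses. It ranged from 1456 to 2336 CPM in CL (median 2074) and from 1100 to 8715 CPM in early AVFs (median 2536). Mid AVFs had 1200, 967, 961, 871 and 1118 CPM, and late AVFs 1075, 1246, 938, 947 and 1031 CPM, all below every CL, while some lay above early AVF 10. The fall from early to late AVFs was -1.73 on the log2 scale (SE 0.36, edgeR adjusted p = 0.004268). The early values were uneven, with 8715, 5857 and 3421 CPM in early AVF 6, 5 and 3.

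Ifi27l2a encodes a small hydrophobic protein induced by interferon. It ranged from 684 to 3340 CPM in CL (median 895) and from 396 to 5902 CPM in early AVFs (median 1127), and the 3 highest early AVFs were again 6, 3 and 5, with 5902, 3523 and 3289 CPM. Mid AVFs had 453, 327, 317, 278 and 357 CPM, and late AVFs 300.3, 450.4, 343, 289 and 353 CPM. Late AVFs were lower by -2.60 on the log2 scale (SE 0.55, edgeR adjusted p = 0.004557). Platelet markers in early AVF 3, 5 and 6 summed to 4127, 9456 and 12770 CPM, against 384.4 to 2613 CPM in the other 5 early AVFs, and neutrophil markers to 2637, 3464 and 4546 CPM, against 314.3 to 1535 CPM. Mono/macro markers summed to 35400, 37560 and 32630 CPM, against 12310 to 28600 CPM. Erythroid markers summed to 9523, 8770 and 18480 CPM, against 1269 to 4390 CPM. The platelet sum was mostly Pf4, with a mean of 3361 CPM in early AVFs against 357 for Ppbp and 118 for Gp9. Pf4 was also among the leading genes of a mono/macro cluster in a finer clustering (resolution 1.0), so this sum is not a measure of platelets alone. The part of these cells in the 2 genes was not tested.

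The calls were sensitive to single libraries and settings. Ifi27l2a lost its call without early AVF 3, 5 or 6 or any 1 late AVF (edgeR adjusted p of 0.01019 to 0.02091), and Ifitm3 without early AVF 5 or any 1 late AVF (edgeR adjusted p of 0.01015 to 0.02105). Ifi204 lost its call against early AVFs in 10 of 25 omissions (CL 27 and 31, early AVF 3, 5 and 6, and each late AVF), with edgeR adjusted p up to 0.03593. It also lost the call with DESeq2's size factors (edgeR adjusted p = 0.01052), with filterByExpr (edgeR adjusted p = 0.02093) and with no filter (edgeR adjusted p = 0.05232). Without the 4 sparse CL, which are in neither group of this comparison but share its filter, normalization and estimate of the spread, 9 members were called lower (6.15% of all genes). These were the 3 above and Zbp1, Oasl1, Oas1a, Rsad2, Rtp4 and Xaf1, with values from -1.15 for Xaf1 to -2.60 for Ifi27l2a.

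Mid AVFs lay between early and late AVFs for most members. Against early AVFs no member was called (0.00789% of all genes called higher and 0% lower). At an unadjusted p under 0.05 there were 6 members (12.7% of all genes). DESeq2's Wald test called 2 lower, Ifitm3 and Ifi27l2a (3.05% of all genes), and none higher (0.458% of all genes). With edgeR these 2 had -1.76 and -2.60 on the log2 scale with the same adjusted p of 0.01307, and both were called without early AVF 1, 2, 4 or 10 (edgeR adjusted p of 0.00343 to 0.009238). Against mid AVFs the late AVFs had no member called by edgeR (0% of all genes higher and 0% lower) or by DESeq2 (0% of all genes higher and 0.00789% lower) and 1 member at an unadjusted p under 0.05 (0.308% of all genes), which was Ifi204 (-0.62). All the same, 35 of 38 values were negative, with a median of -0.31 against 0.00 over all genes (-0.0025), and for Ifi204 every late AVF lay below every mid AVF (1.06% of all genes).

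**Figure D3:**
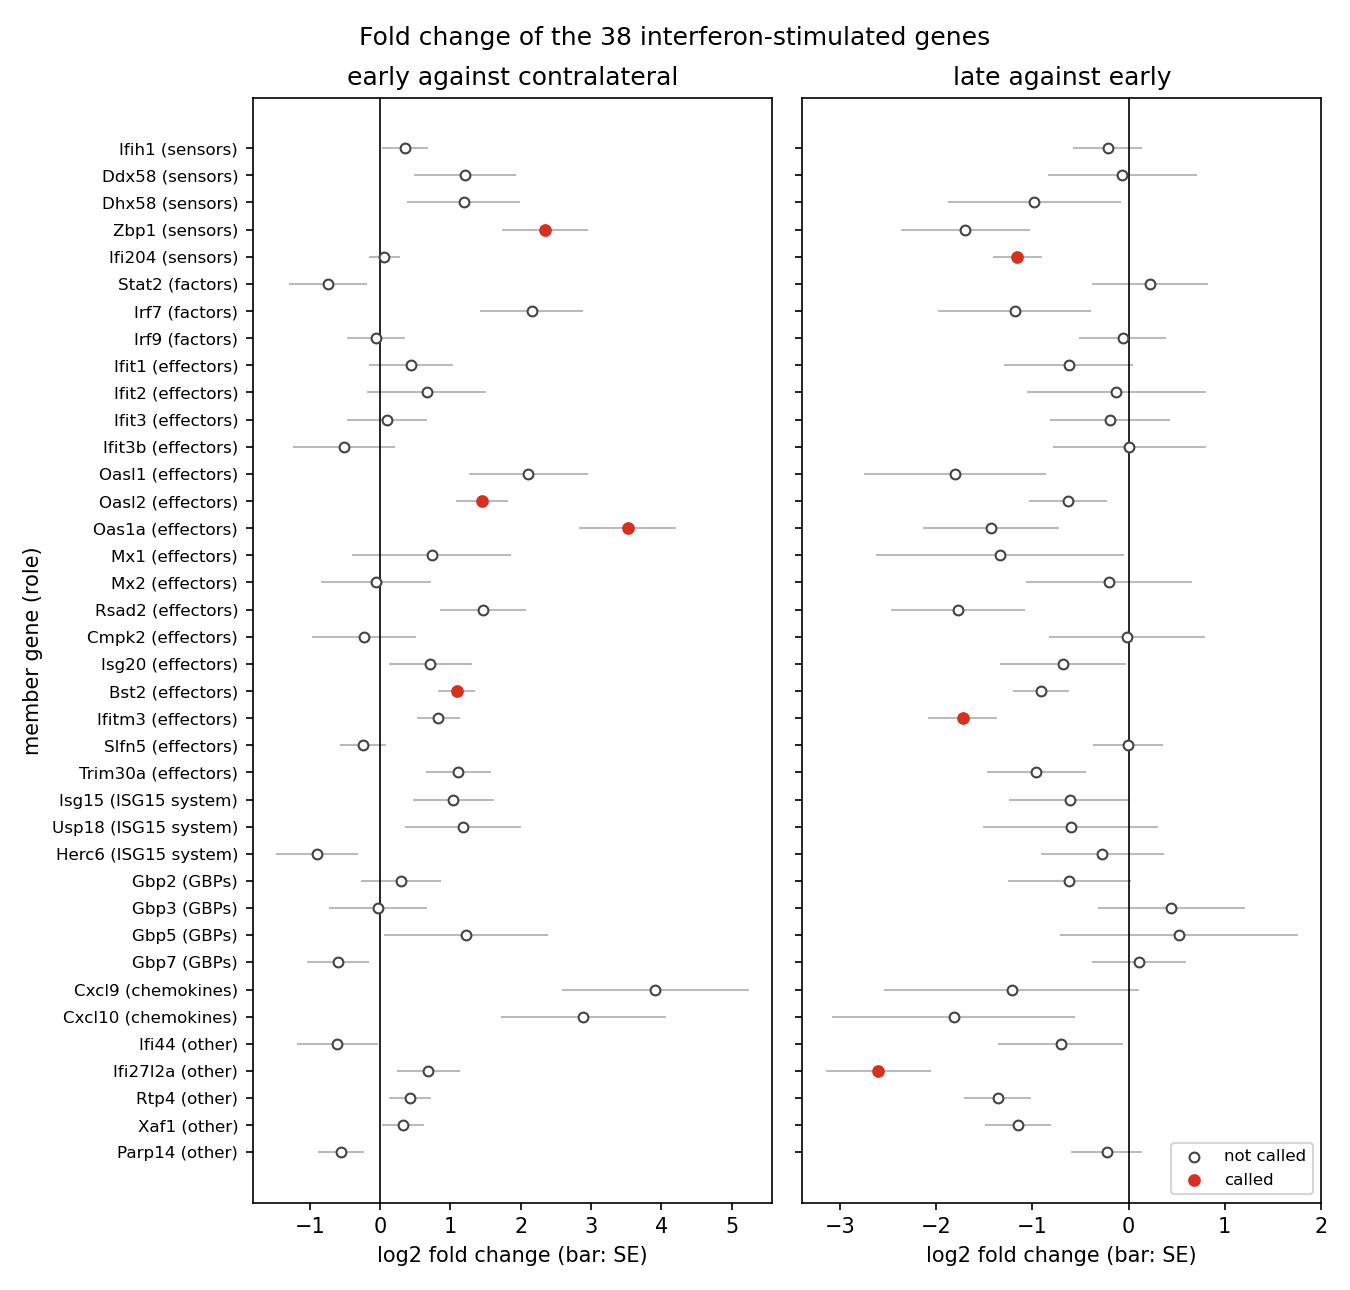
Log2 fold change (points) with its standard error (bars) of the 38 members, by role, for early AVFs against CL and for late against early AVFs. Filled points are the 4 and 3 members called, and in the late against early panel only 5 points lie above 0.

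Single libraries led or trailed their group across the members. Early AVF 4 was the highest early AVF for 25 of 38 members (11.3% of all genes), and early AVF 6 for 10 (25.5% of all genes). Mid AVF 15 was the highest mid AVF for 29 members (24.7% of all genes) and mid AVF 14 the lowest for 24 (17.1% of all genes). Late AVF 17 was the highest late AVF for 28 (23.9% of all genes) and late AVF 23 the lowest for 29 (27.7% of all genes). Such libraries move many members at once, so the 38 values of a comparison are not independent of each other. A test of whether the change from CL to early AVFs differed between the sexes called no member (2 at an unadjusted p under 0.05, lowest edgeR adjusted p = 0.2951), against 57 of 12673 genes.

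The single-cell libraries were used to ask which cells held the members' RNA. After filters 16893 of 26438 barcodes were kept, 6319 from CL, 4753 from early and 5821 from late AVFs, and 36 of the 38 members were in the gene list (Mx1 and Mx2 were not). Depth differed between libraries, with a median of 2751, 8951 and 15425 UMIs per cell, so levels are given as UMI CPM, the UMIs of a gene relative to all UMIs of the summed cells of a class. Cells were clustered without the members, and clusters were named by markers. Each named class had all of its markers at least 2-fold above the median of the other classes, with the libraries summed. Since the same markers gave the names, this is no separate check of them. A cluster of 1058 cells (51 in CL, 556 in early and 451 in late AVFs) stayed unnamed. With 1 pool per group there is no test, and the 95% intervals of levels and ratios cover counting error only. Pairs of libraries shared 5 or 6 barcodes.

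In mono/macros (704 cells in CL, 2120 in early, 1646 in late AVFs), the members summed to 6046 UMI CPM in CL, 6138 in early and 8740 in late AVFs. In early AVFs 4 of 36 members were at least 2-fold higher than in CL (11.1% of all genes were) and 2 at least 2-fold lower (23.5% of all genes). With cells thinned to 1000 UMIs 9 of 35 were at least 2-fold higher (15.1% of all genes). In late AVFs 8 were at least 2-fold higher than in CL (9.12% of all genes) and 2 lower (25.6% of all genes). Against early AVFs 7 were at least 2-fold higher (4.09% of all genes) and none lower (3.49% of all genes). The 7 were Ifih1, Ifit1, Oasl1, Rsad2, Gbp2, Cxcl9 and Cxcl10.

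Ifit1, an RNA-binding effector, rose across the mono/macro pools from 164 to 277 to 651 UMI CPM in CL, early and late AVFs, with a ratio of late to early of 2.35 (2.29 to 2.41). Rsad2 had 218, 396 and 808 UMI CPM. Isg15 had 166, 394 and 590 UMI CPM. These 3 therefore had the same order in the 3 pools. Oasl1 did not, with 269 UMI CPM in CL, 148 in early and 588 in late AVFs. Ifitm3 (999, 1329 and 1100 UMI CPM) and Ifi27l2a (1057, 901 and 914), the members with most UMIs beside Cxcl10, varied little.

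Cxcl10 had 633, 754 and 1679 UMI CPM in mono/macros of CL, early and late AVFs. The CL level stood apart from bulk, where Cxcl10 had a median of 0.0625 CPM in CL. Even the lowest CL class with at least 50 cells, the erythroid cells, had 12.0 UMI CPM. Per the study's methods the cells were freed from the vessels with warm enzymes, while bulk tissue was ground to powder. The part of this step in the single-cell levels was not tested. Cxcl9 had 1, 222 and 1832 UMIs, which is 0.285, 7.26 and 73.6 UMI CPM. The ratio of early to CL, 25.4, had an interval of 4.52 to 1009, since it rests on 1 UMI in CL, and that of late to early was 10.1 (8.82 to 11.7). Smooth muscle cells had 0, 0.407 and 2.75 UMI CPM of Cxcl9 in CL, early and late AVFs. In early AVFs fibroblasts had 35.3 UMI CPM, above the mono/macros. Endothelial cells had 10.6 UMI CPM there, from 71 cells, too few to be set apart from the mono/macros. The part of RNA from other cells in the mono/macro levels was not tested. Stat2 and Gbp7 were the 2 members lower in early AVFs, with 94.1 against 34.8 and 102 against 38.8 UMI CPM in CL and early AVFs.

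The make-up of the class differed between the pools, and the order of the levels depended on it. Cluster 4 held 74, 500 and 702 mono/macros of CL, early and late AVFs. In it Ifit1 had 593, 269 and 901 UMI CPM and Oasl1 had 1011, 159 and 890. Rsad2 (521, 408 and 1070 UMI CPM) and Cxcl10 (1816, 1097 and 2803) were likewise lowest in early AVFs. Within this cluster CL thus lay above early AVFs for Ifit1, Rsad2 and Cxcl10, which were lower in CL over the whole class. Oasl1 was higher in CL than in early AVFs in both. In cluster 0 (21, 1480 and 842 cells) Ifit1 had 89.5, 288 and 528 UMI CPM, the order of the whole class, and in cluster 10, where most CL mono/macros lay (590 cells), it had 73.9 UMI CPM in CL.

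The rise from early to late AVFs in mono/macros stood beside bulk fold changes of late against early AVFs of -0.62 for Ifit1, -1.77 for Rsad2, -1.82 for Cxcl10 and -1.81 for Oasl1, none of them called and all from groups taken on other days than the pools. Mono/macros were 44.6% of the cells kept in early and 28.3% in late AVFs.

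In neutrophils most members were higher in the late than in the early pool. Of 31 members with at least 50 UMIs, 26 were at least 2-fold higher in late than in early AVFs (6.06% of all genes were) and none lower (1.94% of all genes). All 31 ratios were above 1, with a median of 2.84 against 1.12 over all genes. The members summed to 3301 UMI CPM in early and 7649 in late AVFs. Depth was alike, with a median of 3458 UMIs in 783 early and 3357 UMIs in 285 late neutrophils. CL held 61 neutrophils with 507 UMIs of the members in all, too few for most single members.

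Xaf1, a pro-apoptotic antagonist of XIAP, had the largest ratio, 7.93 (4.92 to 13.1), from 7.71 to 61.1 UMI CPM. Ifit1 rose from 54.9 to 304 UMI CPM (5.53, 4.59 to 6.68) and Ifit3 from 32.7 to 151 (4.62, 3.59 to 5.96). Cmpk2, a nucleotide kinase of mitochondria, had 4.16 (2.57 to 6.79) and Usp18 3.85 (2.50 to 5.96). Genes with more UMIs showed the same direction with tighter intervals. Rsad2 rose from 342 to 971 UMI CPM (2.84, 2.61 to 3.10) and Isg15 from 280 to 880 (3.14, 2.86 to 3.45). Ifi204 rose too, from 82.9 to 295 UMI CPM, while its level in bulk late AVFs was the lowest of the 4 groups. Ifitm3 (1.35), Trim30a (1.26), Bst2 (1.55), Irf9 (1.502) and Rtp4 (1.83) stayed under 2-fold.

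Mono/macro markers summed to 2505 UMI CPM in early and 1858 in late neutrophils, and fibroblast markers to 2449 and 2884. The neutrophils' own markers summed to 76029 and 56254 UMI CPM. The part of RNA from other cells in the neutrophil levels was not tested. The members' RNA was unevenly spread over neutrophils. With cells thinned to 1000 UMIs, the variance of the members' summed UMIs per cell over their mean was 13.3 in 742 early and 22.9 in 256 late neutrophils, against 6.87 and 9.94 in mono/macros (a value of 1 is that of counting noise alone). At that depth 11 of the 19 members still counted were at least 2-fold higher in late AVFs (4.67% of all genes). Neutrophils were 16.5% of the cells kept in early and 4.90% in late AVFs, and the neutrophil markers of bulk late AVFs summed to 141.7 to 311.3 CPM.

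**Figure D4:**
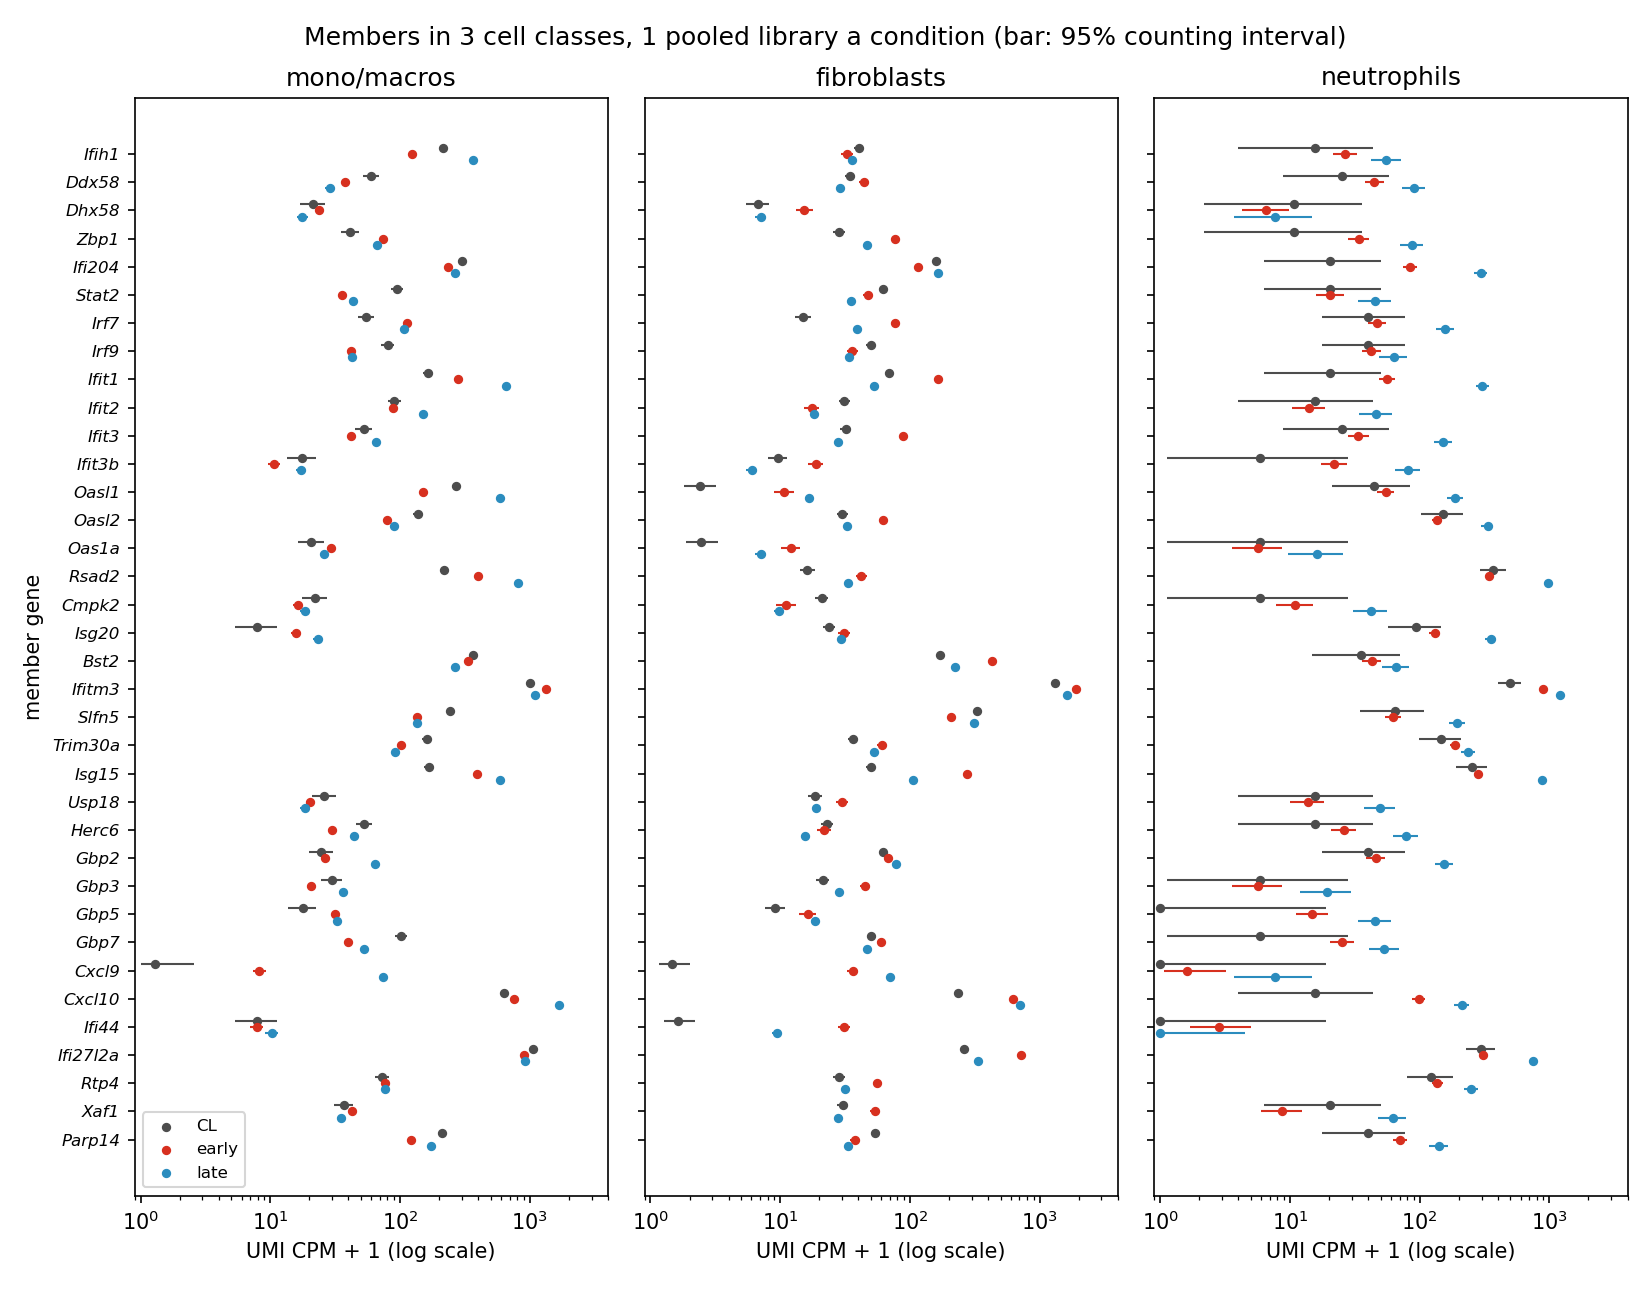
UMI CPM + 1 (log scale) of 36 members in mono/macros, fibroblasts and neutrophils of the CL, early and late single-cell pools, with bars for the 95% interval of the counting error. In neutrophils the late point lies to the right of the early point for every member drawn except Ifi44, and in fibroblasts Isg15, Irf7 and Ifit1 lie furthest right in early AVFs.

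Fibroblasts (1842 cells in CL, 378 in early, 1979 in late AVFs) had their higher levels in early AVFs. Of 36 members 18 were at least 2-fold higher in early AVFs than in CL (9.48% of all genes were) and none lower (16.9% of all genes), with a median ratio of 1.94 against 0.861 over all genes. Against early AVFs, late AVFs had 7 members at least 2-fold lower (5.61% of all genes) and none higher (5.77% of all genes). Against CL, late AVFs had 9 at least 2-fold higher (7.6% of all genes) and 1 lower (14.5% of all genes), and with cells thinned to 1000 UMIs 3 of 29 were higher (6.74% of all genes) and 0 lower (9.06% of all genes). The members summed to 3291, 5568 and 4320 UMI CPM.

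Isg15 in fibroblasts went from 49.0 UMI CPM in CL to 276 in early and 105 in late AVFs, with a ratio of early to CL of 5.63 (5.17 to 6.14). Irf7 went from 14.0 to 75.5 and then 37.8 UMI CPM. Bst2 had 169, 429 and 220 UMI CPM. Ifi27l2a had 263, 719 and 335. Ifit1 went from 165 in early to 51.8 UMI CPM in late AVFs, under its 67.6 in CL. Oas1a, the member called with the largest change in bulk, had 1.47, 11.1 and 6.09 UMI CPM, a ratio of early to CL of 7.54 (4.63 to 13.0). Zbp1 had 27.4, 75.6 and 45.9 UMI CPM.

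The chemokines did not return. Cxcl10 in fibroblasts had 235, 622 and 700 UMI CPM, and Cxcl9 had 6, 386 and 3503 UMIs, which is 0.464, 35.3 and 69.5 UMI CPM. The ratio of early to CL for Cxcl9 was 76.2 (34.7 to 209). Ifi44 (0.618, 30.1 and 8.40 UMI CPM) had the next largest ratio of early to CL, 48.7 (24.4 to 114), from 8 UMIs in CL. Mono/macro markers in fibroblasts summed to 174, 276 and 365 UMI CPM, and adipocyte markers to 1.24, 300 and 1.01. CL and AVF fibroblasts fell in different clusters, since cluster 1 held 1633 of those in CL, cluster 2 held 318 in early and 1124 in late AVFs, and cluster 6 held 207, 55 and 799. In cluster 6 Isg15 had 88.4, 153 and 71.0 UMI CPM and Ifit1 107, 166 and 40.3.

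In T cells (636, 167 and 564 cells) 14 of 31 members were at least 2-fold higher in early AVFs than in CL (7.68% of all genes) and 1 lower, Slfn5 of the Schlafen family (12.1% of all genes). In late AVFs 15 were at least 2-fold higher than in CL (7.63% of all genes) and none lower (10.8% of all genes). Ifi27l2a had 121, 1048 and 647 UMI CPM, with a ratio of early to CL of 8.68 (7.71 to 9.80). Ifit1 had 6.14, 62.0 and 90.8 UMI CPM in 18, 76 and 380 UMIs. At a finer clustering (resolution 1.0, examined after the values were seen) most T cells of CL and of late AVFs fell in different clusters. Cluster 10, led by Gata3 and Il7r, held 502, 61 and 66 cells, and cluster 9, led by Ccl5 and Icos, held 123, 91 and 478. In cluster 9 of that clustering 15 of 30 members were at least 2-fold higher in early AVFs than in CL (10.3% of all genes) and 17 in late AVFs (9.19% of all genes). In cluster 10 there were 2 of 19 in early (4.61% of all genes) and 5 in late AVFs (7.7% of all genes). Ifi27l2a had 205, 1685 and 673 UMI CPM in cluster 9 and 85.2, 270.1 and 448 in cluster 10, so that early AVFs were highest in the former and late AVFs in the latter.

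Endothelial cells (816, 71 and 83 cells) had more members lower than higher in AVFs. In early AVFs 2 of 33 members were at least 2-fold higher than in CL (9.27% of all genes) and 3 lower (14.6% of all genes), and in late AVFs 3 higher (6.08% of all genes) and 7 lower (15.6% of all genes), shares not far from those of genes in general. Slfn5 had 638, 254 and 289 UMI CPM. Rsad2 in late AVFs was at 0.35 times its level in CL (0.23 to 0.53). Cxcl10 rose in late AVFs, from 53.5 to 212 UMI CPM (3.97, 3.09 to 5.09). In dendritic cells (71, 135 and 138 cells) Cxcl9 had 8.16, 4.13 and 278 UMI CPM from 3, 7 and 670 UMIs, the highest Cxcl9 level of any class and pool. Against early AVFs 8 of 33 members were at least 2-fold higher in late dendritic cells (3.21% of all genes) and 1 lower, Usp18 (2.56% of all genes).

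Over the classes with at least 50 cells, the highest level of a member lay in mono/macros for 18 of 36 members in CL and for 14 in early AVFs. In late AVFs it lay in neutrophils for 17 and in mono/macros for 8. The class with the most members at their highest level was thus mono/macros in CL and early AVFs and neutrophils in late AVFs. Endothelial cells held the highest level of 7, 7 and 5 members.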

How the data were processed

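The authors deposited 1 table of whole-number read counts per gene for 25 bulk libraries and 3 matrices of UMI counts per gene and cell, also whole-number counts. The submitters' processing notes name STAR and Cell Ranger and the builds mm10 and GRCm38, and the role of each is not given in the sources used here beyond Cell Ranger for the matrices. Of 56980 gene identifiers 4808 had no symbol.

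Bulk genes with a mean normalized count of at least 100 were kept, and groups were compared with edgeR 4.0.16 in R 4.3.3 (trimmed mean of M-values normalization, quasi-likelihood test, all 25 libraries in 1 fit, Benjamini-Hochberg adjustment over 12673 genes). The p-values measure the spread between vessels. On simulated counts for early against CL, the fit recovered 24% of genes changed by 2 on the log2 scale and 57% of those changed by 3. Alternatives were DESeq2 1.42.0, its size factors, filterByExpr, no filter, a sex term, omission of each library and, added after the data were seen, omission of 4 sparse CL.

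Cells with 200 to 6000 genes and at most 10% mitochondrial UMIs were clustered in scanpy 1.11.5 (2000 variable genes, 12 components, 20 neighbors, resolution 0.5), leaving out the members, the markers and the pathway genes. The rule for naming clusters was amended after a first naming, which left 1 cluster unnamed. Scrublet called 0%, 0.042% and 2.062% of cells doublets and had not worked in CL and early AVFs, so no doublets were removed. Levels are summed UMI counts relative to all UMIs of a class with exact Poisson intervals at 95%. Members with at least 50 UMIs in a class were counted at 2-fold or more.

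The members and all lists were chosen with earlier results of these data known. The result of 1 signaling gene is not reported here. Values in every library are given for the 7 members called in a bulk comparison and, to reach 8, the member with the largest change in early AVFs. In single cells the members with the largest levels and ratios are named. Members outside these rules, such as those that reappear across cell classes, were chosen after their values were seen.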

Additional observations from a re-analysis of the deposited data

Results flagged for a closer look

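Of 32 groups of 4 to 10 bulk libraries examined for the 8 members given in full, 2 had a library set apart from the rest, measured as its gap to the nearest library over the whole range of the group. Chance alone sets apart about 1 in 20 groups. Ifi27l2a in CL had a gap of 0.577 of the range (n = 7), since CL 35 held 3340 CPM and the next CL 1809 CPM. Cxcl9 in CL had a gap of 0.908 of the range (n = 7), since CL 633 held 8.62 CPM and the next CL 0.791 CPM.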

How the results depend on the processing

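The number of members called depended on the tool, the filter and single libraries. For the members called with the main settings, no fold change of the called comparison changed sign under any bulk alternative. Other values named in the text were not checked for sign under every alternative. DESeq2's Wald test called 7 members in early AVFs against CL, 2 in mid against CL, 2 in late against CL and 2 in mid against early AVFs, in place of 4, 0, 1 and 0. With filterByExpr 2 were called in mid and 2 in late AVFs against CL, and with no filter 2 in mid AVFs against CL. With a sex term 0 were called in late AVFs against CL. Without the 4 sparse CL together (chosen after the data were seen), 1 was called in mid against CL, 0 in late against CL and 9 in late against early AVFs. Omission of 1 library at a time gave 2 to 5 called in early against CL, 0 to 1 in mid against CL, 0 to 2 in late against CL, 0 to 2 in mid against early, 0 to 4 in late against early and 0 to 0 in late against mid AVFs. The causes were not tested.

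In single cells, thinning to 1000 UMIs gave 9 members at least 2-fold higher in mono/macros of early AVFs against CL, 3 higher and 0 lower in fibroblasts of late AVFs against CL (29 counted), and 11 higher in neutrophils of late against early AVFs (19 counted). A limit of 5% mitochondrial UMIs gave 1 lower in mono/macros of late AVFs against CL, and a resolution of 1.0 gave 1 lower in fibroblasts of early AVFs against CL. No paired analysis was possible because the groups compared share no replicate numbers. With 1 pool per group the single-cell differences have no replicate check, and cells of CL were too shallow or too few (61 neutrophils) for members with few UMIs.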
